A study of Homo sapiens with 12 samples.

Results

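The BCL2 family decides whether the outer membrane of the mitochondrion is breached, and 10 of its genes were followed here in pancreatic cancer cells before and after they acquired resistance to gemcitabine (GEM). The 10 members were taken by symbol from a table of 58302 genes, and all 10 were in the table. They are the anti-apoptotic genes BCL2, BCL2L1 and MCL1, the effector genes BAX and BAK1, and the BH3-only genes BID, BCL2L11, BBC3, BAD and BIK. RNA was sequenced from 4 lines with 3 libraries each, 12 libraries in all. BxPC-3 and CFPAC-1 are established human lines of pancreatic ductal adenocarcinoma and served as the GEM-sensitive parents. The resistant derivatives, CFPAC-1-GR and BxPC-3-GR, were each made by culturing its parent in stepwise rising GEM, a nucleoside analogue that blocks DNA synthesis. The last concentration was higher for BxPC-3-GR than for CFPAC-1-GR. Each parent gave 1 resistant line, so a difference between resistant and parental cells is a difference between those lines. Whether GEM was in the medium when RNA was taken is not given in the sources used here. Nothing states that the libraries of a line came from separate cultures, so p-values measure only the spread between these libraries, which may be technical.

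Cells die through the mitochondrial pathway when BAX or BAK1 proteins assemble into pores in the outer membrane and release cytochrome c, which starts the caspases. The proteins of BCL2, BCL2L1 (BCL-XL) and MCL1 hold BAX and BAK1 and their activators in check. BH3-only proteins report stress: BCL2L11 (BIM), BBC3 (PUMA) and cleaved BID can engage the effectors, while BAD and BIK mainly occupy the anti-apoptotic proteins. Much of the control of these proteins lies in splicing, phosphorylation, cleavage and decay, and RNA summed over the transcripts of a gene does not show it.

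Values are FPKM, which divide the fragments of a gene by its length and by the depth of the library, so levels of different genes could be set side by side per length. Depth, read from the spacing of low values, was 12900000 to 25700000 mapped fragments per library, and libraries of 1 line ranked genes alike (Spearman's rho of 0.965 to 0.981 across genes). A change, log2FC, is the difference of the means of log2(FPKM + 1), resistant minus parental, and it understates the change of low genes. It was tested with limma over all genes averaging at least 1 FPKM, with Benjamini-Hochberg adjustment over all of them. A gene was called at an adjusted p below 0.05 and was termed significantly differentially expressed (SDE) when its absolute log2FC was also above 1. The 6 ductal epithelial markers (KRT7, KRT8, KRT18, KRT19, EPCAM and CDH1) summed to 838 to 1012 FPKM in BxPC-3 and its derivative, to 2636 to 2914 FPKM in CFPAC-1, and to 1156 to 1347 FPKM in CFPAC-1-GR. Keratins made up most of these sums, and in the CFPAC-1 lines the mean of KRT19 went from 1573 to 531 FPKM, while EPCAM went from 86.2 to 118 FPKM and CDH1 from 21.6 to 37.5 FPKM. The leukocyte marker PTPRC was at 0 in all 12 libraries. The endothelial marker PECAM1 was at 0.0382 to 0.267 FPKM, highest in BxPC-3-GR. The fibroblast marker COL1A1 was at 0.664 to 3.32 FPKM, highest in CFPAC-1-GR. BxPC-3-GR is labelled mesenchymal in shape and the other lines epithelial, while the summed mesenchymal markers (VIM, CDH2, ZEB1 and FN1) were 12.4 to 15.1 FPKM in BxPC-3, 14.7 to 16.6 FPKM in BxPC-3-GR, 120 to 155 FPKM in CFPAC-1 and 85.2 to 98.4 FPKM in CFPAC-1-GR. Within the BxPC-3 sums VIM went from a mean of 6.59 to 0.813 FPKM in the resistant line, CDH2 from 1.99 to 5.40 FPKM and FN1 from 5.30 to 9.09 FPKM. In the CFPAC-1 sums VIM alone was lower in the resistant line, with means of 126 and 57.9 FPKM. CDH2 went from 11.8 to 28.4 FPKM there, FN1 from 1.58 to 4.46 FPKM and ZEB1 from 0.0762 to 0.182 FPKM. In CFPAC-1-GR against CFPAC-1, the log2FC of all tested genes followed the GC content of their transcripts (Spearman's rho of -0.777 across genes), whereas in the BxPC-3 lines it barely did (0.0388). Each member tested in the CFPAC-1 comparison is therefore given also after a correction for GC content and length, and the part of this trend in the members' changes was not tested beyond that.

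**Figure D1:**
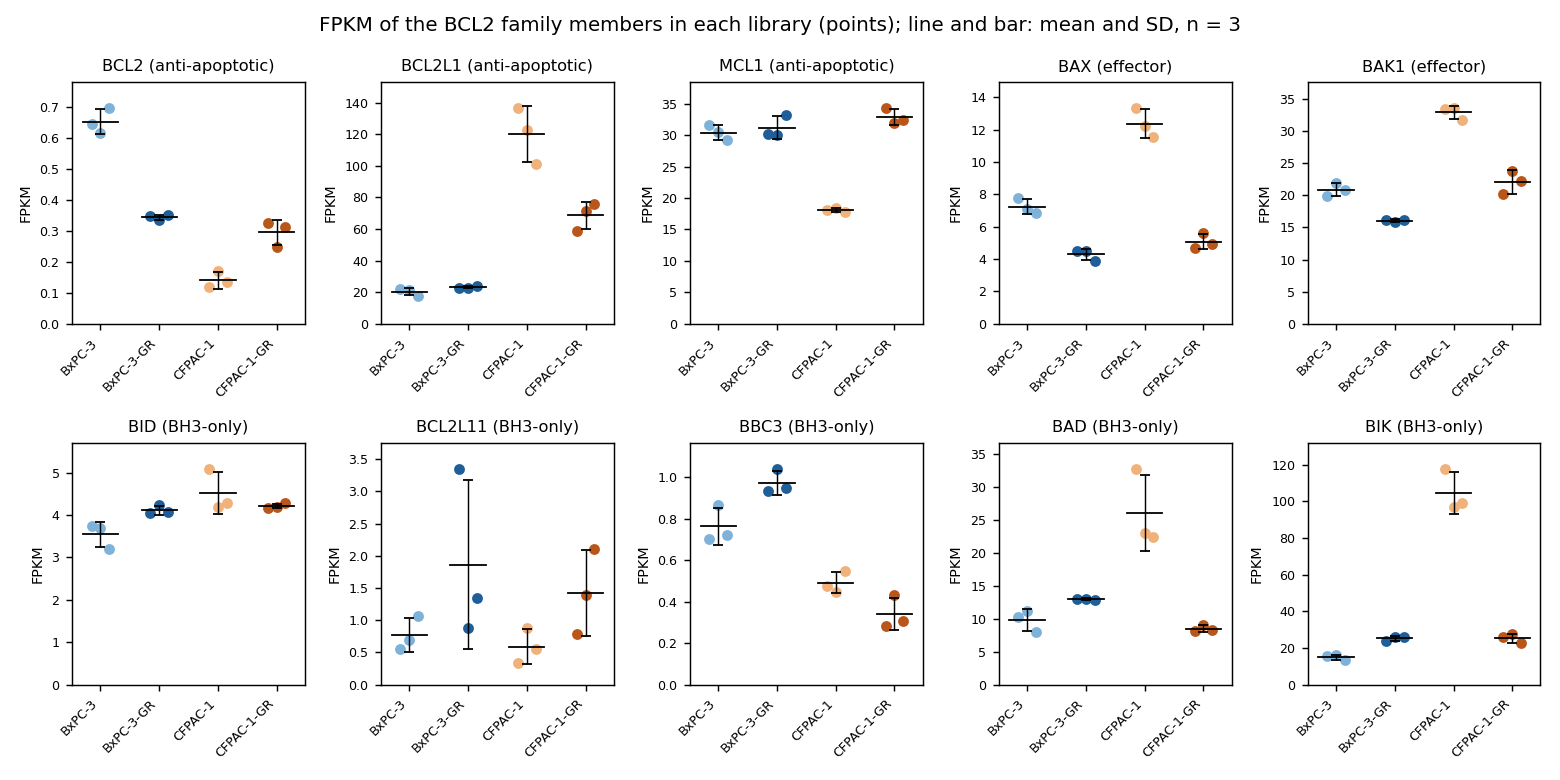
FPKM (linear axis from 0, a scale of its own per gene) of the 10 members in the 12 libraries, with 3 points per line and the mean and SD drawn over them. BIK and BCL2L1 stand highest in CFPAC-1, with means of 105 and 120 FPKM, BAX is lower in both resistant lines, and BCL2, BCL2L11 and BBC3 lie low throughout.

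Both resistant lines carried less BAX and less BAK1 RNA than their parents in the values as deposited, while BIK and BAD, BH3-only genes, moved in opposite directions in the 2 resistant lines. For BAD the rise in BxPC-3-GR lost its call in some fits that left out 1 library. Of the 10 members, 8 passed the minimum of 1 FPKM in each comparison of resistant with parental cells, and BCL2 and BBC3 did not. BxPC-3-GR had 4 called members, 2 higher (BIK and BAD) and 2 lower (BAX and BAK1), where 57.7% of all 11710 tested genes were called, 26.2% higher and 31.5% lower. None of the 8 was SDE there, against 7.76% of all tested genes. Their median log2FC was 0.18, beside -0.05 over all tested genes. The libraries of 6 of the 8 did not overlap between BxPC-3-GR and BxPC-3, as for 66.1% of all tested genes, and 6 of 8 did not between CFPAC-1-GR and CFPAC-1, as for 82.1%. With the GC correction 6 of 8 were called in BxPC-3-GR (58.9% of all genes). CFPAC-1-GR had 7 of 8 called, 2 higher (MCL1 and BCL2L11) and 5 lower (BAD, BAK1, BCL2L1, BAX and BIK), where 79.6% of all 12051 tested genes were called, 44.6% higher and 34.9% lower. The SDE members there were BIK, BAD and BAX, all lower, against 32.2% of all tested genes. The median log2FC of the members was -0.68 beside 0.13 over all tested genes. After the GC correction 5 of 8 were called in CFPAC-1-GR (60.2% of all genes), 2 higher and 3 lower, and BIK alone was SDE (8.66% of all genes), with a median log2FC of -0.18.

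**Figure D2:**
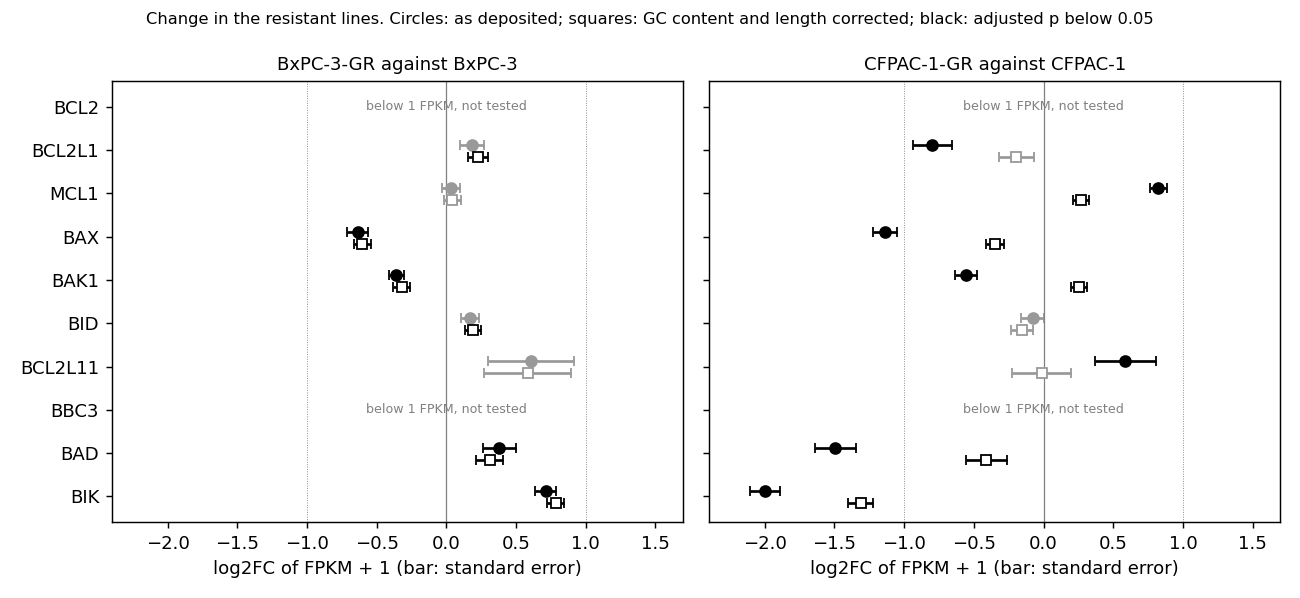
log2FC of FPKM + 1 (points, with standard errors) of the 8 tested members in each resistant line against its parent, as deposited (circles) and after correction for GC content and length (squares). In the BxPC-3 lines both versions lie close together, while in the CFPAC-1 lines the correction draws BAD from -1.49 to -0.41 and BAX from -1.14 to -0.35 and carries BAK1 from -0.56 to 0.26; BIK goes from -2.001 to -1.31.

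Among the anti-apoptotic genes, BCL2L1 was the one highest in CFPAC-1. BCL2L1 (ENSG00000171552, chr20:31664452-31723989, minus strand, GRCh38) encodes BCL-XL and, by another splice form, the shorter BCL-XS, which these values do not separate. It measured 21.8, 21.4 and 17.7 FPKM in BxPC-3 and 22.7, 22.9 and 23.9 FPKM in BxPC-3-GR. CFPAC-1 held 136, 123 and 101 FPKM and CFPAC-1-GR 58.8, 71.3 and 75.7 FPKM. No library of 1 line overlapped those of another, and every CFPAC-1 library stood above every library of the other lines. BCL2L1 fell in CFPAC-1-GR (log2FC -0.80, SE 0.141, adjusted p = 0.0015). That call was lost after the GC correction (log2FC -0.19, adjusted p = 0.22). For BxPC-3-GR the log2FC was 0.19 (SE 0.0874, adjusted p = 0.12), and with the correction it was 0.23 and called (adjusted p = 0.035). Its exons overlap ABALON on the other strand, and whether counting used the strand is not given in the sources used here.

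MCL1, a short-lived guardian of BAK1, behaved in the reverse way across the lines. It lies at chr1:150574551-150579738 on the minus strand (ENSG00000143384), and its exons overlap ADAMTSL4-AS1 on the same strand. Its FPKM were 31.6, 30.4 and 29.2 in BxPC-3 and 30.2, 30.1 and 33.3 in BxPC-3-GR, and these groups overlapped (log2FC 0.03, SE 0.0620, adjusted p = 0.66). CFPAC-1 was the low line with 18.2, 18.4 and 17.7 FPKM, and CFPAC-1-GR reached 34.3, 31.9 and 32.4 FPKM. The CFPAC-1-GR libraries overlapped BxPC-3-GR but not CFPAC-1. MCL1 rose in CFPAC-1-GR (log2FC 0.82, SE 0.0634, adjusted p = 2.5e-05), and the rise was called with the GC correction at a smaller size (log2FC 0.27, adjusted p = 0.0075). Tested genes of the same GC content, 44% to 46%, had a median log2FC of 0.60 in that comparison.

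BCL2, the founder of the family (ENSG00000171791, chr18:63123346-63320128, minus strand), was scarce in every line. It measured 0.645, 0.615 and 0.695 FPKM in BxPC-3 and 0.347, 0.333 and 0.349 FPKM in BxPC-3-GR. CFPAC-1 had 0.117, 0.171 and 0.134 FPKM and CFPAC-1-GR 0.324, 0.248 and 0.313 FPKM. The resistant libraries lay below all parental ones in the BxPC-3 lines and above all parental ones in the CFPAC-1 lines. These levels rest on an implied 134 to 145 fragments in BxPC-3, 86 to 105 in BxPC-3-GR, 51 to 85 in CFPAC-1-GR and 21 to 27 in its parent. BCL2 was below the minimum for the test, and the ratio of resistant to parental means was 0.527 in the BxPC-3 lines and 2.10 in the CFPAC-1 lines. An exact two-sided permutation test gave p = 0.1 in each, which is the smallest value that 3 against 3 libraries allow. In the fit with no minimum, the adjusted p was 0.001 in the BxPC-3 lines (log2FC -0.30) and 0.012 in the CFPAC-1 lines (log2FC 0.18). The GC correction was fitted to genes above the minimum, so BCL2 and BBC3 have no corrected test. Carried over to BCL2 all the same, it took the ratio of BCL2 to BAX in the CFPAC-1 lines from 0.0886 to 0.0222, where the deposited values gave 0.0114 and 0.0588, so the rise of that ratio depended on the processing.

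The effector gene BAX was lower in both resistant lines. BAX (ENSG00000087088, chr19:48954815-48961798, plus strand) supplies the pore-forming protein that moves from the cytosol to mitochondria. Its FPKM were 7.77, 7.09 and 6.86 in BxPC-3 and 4.50, 4.52 and 3.90 in BxPC-3-GR. CFPAC-1 had 13.3, 12.3 and 11.6 FPKM and CFPAC-1-GR 4.71, 5.61 and 4.94 FPKM. All resistant libraries lay below all libraries of their own parent, and the lines kept apart from each other throughout. BAX fell in BxPC-3-GR (log2FC -0.64, SE 0.0731, adjusted p = 0.0006) and in CFPAC-1-GR (log2FC -1.14, SE 0.0867, adjusted p = 2.4e-05). Both falls were called after the GC correction, at -0.60 (adjusted p = 0.00033) and -0.35 (adjusted p = 0.0039). The ratio of resistant to parental mean FPKM was 0.594 in the BxPC-3 lines and 0.411 in the CFPAC-1 lines.

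The BAX promoter is printed because BAX was the member lowered in both lines with and without the correction. The set of RefSeq promoters used here, from 250 bases before to 50 bases after the start, held 8 of the 10 members. BIK and MCL1 had no entry in that set. BAX carried 4 copies of CACGTG, a palindromic E-box core read by MYC and related factors. They began at -138, -93, -45 and -14 from the start site and are set in capitals in the following sequence (GRCh38.p14, chr19:48954625-48954924, plus strand).
BAX: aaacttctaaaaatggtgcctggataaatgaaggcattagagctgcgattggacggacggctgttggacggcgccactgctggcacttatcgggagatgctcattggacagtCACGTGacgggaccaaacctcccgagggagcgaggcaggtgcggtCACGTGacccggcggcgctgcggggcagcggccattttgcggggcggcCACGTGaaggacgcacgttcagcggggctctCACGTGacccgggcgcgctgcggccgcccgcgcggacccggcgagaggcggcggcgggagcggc
At least 1 CACGTG occurred in 7.43% of all 27305 promoters of the same length, and of the other members with an entry BBC3 had 1. A match of letters describes the sequence and not its use.

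BAK1 (ENSG00000030110, chr6:33572547-33580293, minus strand), whose protein sits in the mitochondrial outer membrane from the outset, moved with BAX in the deposited values. It measured 19.96, 21.9 and 20.8 FPKM in BxPC-3 and 16.2, 15.8 and 16.2 FPKM in BxPC-3-GR. CFPAC-1 had 33.5, 33.6 and 31.7 FPKM and CFPAC-1-GR 20.2, 23.8 and 22.3 FPKM. Neither resistant line overlapped its parent, and CFPAC-1-GR came down into the range of BxPC-3. BAK1 fell in BxPC-3-GR (log2FC -0.36, SE 0.0531, adjusted p = 0.0017), also with the correction (-0.32, adjusted p = 0.005). For CFPAC-1-GR its log2FC was -0.56 as deposited (SE 0.0797, adjusted p = 0.00052) but 0.26 after the GC correction (adjusted p = 0.0095), so the direction in that line turned with the processing. Genes of 58% to 60% GC, the bin of BAX and BAK1, had a median log2FC of -0.64 in the CFPAC-1 lines. Exons of BAK1 overlap GGNBP1 on the plus strand.

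**Figure D3:**
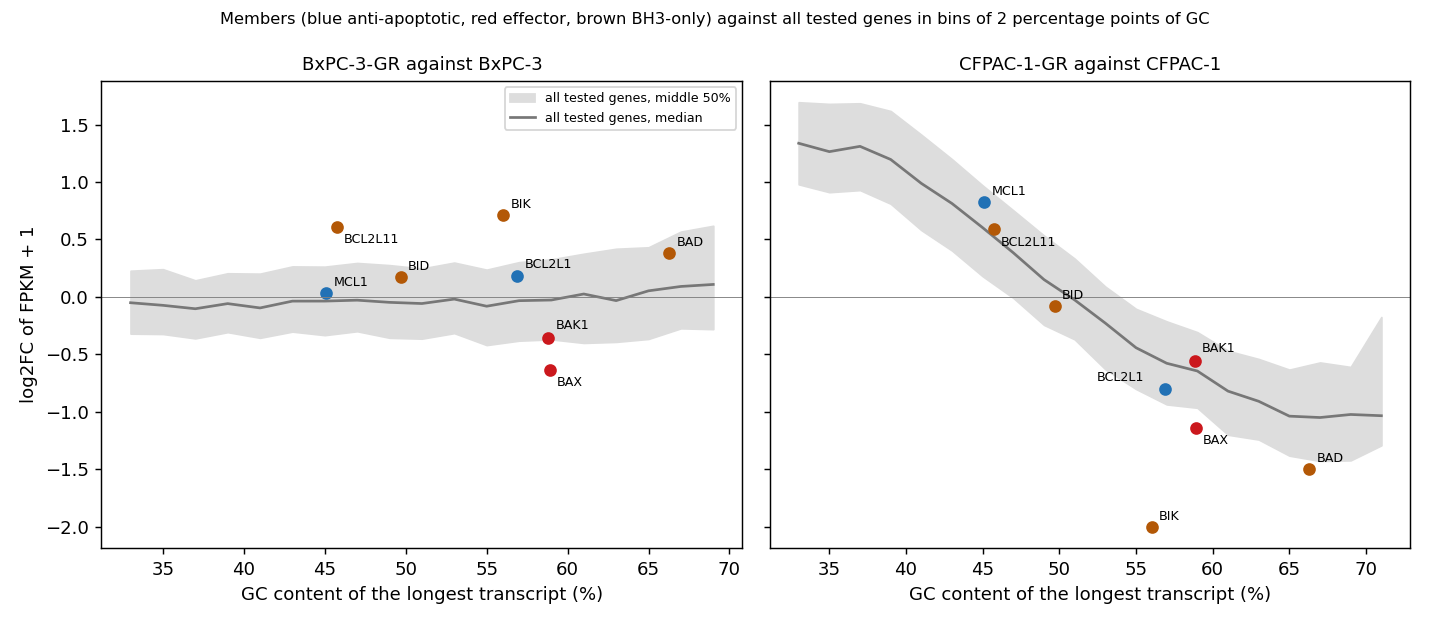
log2FC of FPKM + 1 against the GC content of the longest transcript (percent) for the 8 tested members (points) and for all tested genes in bins of 2 percentage points (line, median; band, middle 50%), in each resistant line against its parent. In the CFPAC-1 lines the median runs from 1.34 to -1.03 and BIK, at -2.001, lies far below it, whereas BAK1 and BCL2L11 lie close to it; in the BxPC-3 lines the median is nearly flat.

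BIK showed the widest swing of the BH3-only genes. BIK (ENSG00000100290, chr22:43110748-43129712, plus strand) encodes a protein of the endoplasmic reticulum membrane that binds BCL2 and BCL-XL. Its FPKM were 15.5, 15.99 and 13.5 in BxPC-3 and 23.8, 25.9 and 25.7 in BxPC-3-GR. CFPAC-1 held 118, 97.0 and 99.3 FPKM, and CFPAC-1-GR 26.2, 27.4 and 22.6 FPKM. The resistant lines thus ended at overlapping levels, BxPC-3-GR from below and CFPAC-1-GR from above, and neither overlapped its parent. BIK rose in BxPC-3-GR (log2FC 0.71, SE 0.0780, adjusted p = 0.0005) and fell in CFPAC-1-GR (log2FC -2.001, SE 0.108, adjusted p = 8e-06). The mean was 4.12 times as high in CFPAC-1 as in CFPAC-1-GR. With the GC correction the changes were 0.78 (adjusted p = 0.00014) and -1.31 (adjusted p = 9.3e-05). Genes of 56% to 58% GC, like BIK, had a median log2FC of -0.58 in the CFPAC-1 lines, with a lower quartile of -0.93.

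BAD (ENSG00000002330, chr11:64269830-64284704, minus strand), a BH3-only gene whose protein is held inactive by phosphorylation under survival signals, had the same pair of directions. It measured 10.3, 11.2 and 7.93 FPKM in BxPC-3 and 13.1, 13.0 and 12.8 FPKM in BxPC-3-GR. CFPAC-1 had 32.7, 23.0 and 22.5 FPKM and CFPAC-1-GR 8.12, 9.06 and 8.26 FPKM. The groups did not overlap within either line, although replicate 1 of CFPAC-1 stood well above the other 2 and replicate 3 of BxPC-3 below them. BAD rose in BxPC-3-GR (log2FC 0.38, SE 0.118, adjusted p = 0.032). This call was lost without replicate 1 of BxPC-3 (adjusted p = 0.053) and without replicate 1, 2 or 3 of BxPC-3-GR (adjusted p = 0.081, 0.076 and 0.076). BAD fell in CFPAC-1-GR (log2FC -1.49, SE 0.147, adjusted p = 7.8e-05), and after the GC correction the log2FC was -0.41 (adjusted p = 0.047). Its transcript has 66.3% GC, and genes of 66% to 68% GC had a median log2FC of -1.05. Its exons overlap GPR137 on the plus strand, which measured 1.38 to 3.93 FPKM over the 12 libraries.

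BID (ENSG00000015475, chr22:17734138-17774770, minus strand), the substrate through which caspase-8 reaches the mitochondrion, had line means of 3.55 to 4.52 FPKM, the narrowest span of the members as a ratio of highest to lowest. Its FPKM were 3.74, 3.70 and 3.21 in BxPC-3 and 4.04, 4.23 and 4.07 in BxPC-3-GR. CFPAC-1 had 5.09, 4.20 and 4.28 FPKM and CFPAC-1-GR 4.17, 4.20 and 4.27 FPKM. The BxPC-3 groups did not overlap and the CFPAC-1 groups did. Neither change was called, with a log2FC of 0.17 (SE 0.0633, adjusted p = 0.058) in the BxPC-3 lines and -0.08 (SE 0.0806, adjusted p = 0.39) in the CFPAC-1 lines. The GC correction brought BID past the threshold in BxPC-3-GR (log2FC 0.19, adjusted p = 0.025) but not in CFPAC-1-GR (log2FC -0.16, adjusted p = 0.13), and median-of-ratios and upper-quartile scaling did so in CFPAC-1-GR (log2FC -0.33 and -0.43, adjusted p = 0.017 and 0.0026).

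BCL2L11 (ENSG00000153094, chr2:111119378-111168447, plus strand) encodes BIM, an activator that is induced by FOXO factors when growth factor signals cease. Relative to its mean, it varied more between libraries of a line than any other member. BxPC-3 had 0.554, 0.694 and 1.07 FPKM and BxPC-3-GR 3.35, 0.882 and 1.35 FPKM. CFPAC-1 had 0.334, 0.877 and 0.557 FPKM and CFPAC-1-GR 0.780, 1.39 and 2.11 FPKM. The groups overlapped in both lines, and replicate 1 of BxPC-3-GR stood far above the other 2 libraries of its line. The log2FC was 0.61 in the BxPC-3 lines (SE 0.310, adjusted p = 0.14). In CFPAC-1-GR it was 0.59 (SE 0.218, adjusted p = 0.041), but the call was lost without replicate 1 or 3 of CFPAC-1 (adjusted p = 0.13 and 0.087), and the log2FC was -0.011 after the GC correction (adjusted p = 0.97). Exons of BCL2L11 overlap the antisense MIR4435-2HG, which measured 1.16 to 1.51 FPKM in BxPC-3, 1.49 to 1.703 in BxPC-3-GR, 2.87 to 3.11 in CFPAC-1-GR and 4.32 to 4.56 in its parent. Reads from the antisense gene cannot be told apart from those of BCL2L11 if strand was not used.

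The BCL2L11 promoter is printed because FOXO3, a regulator of this gene in textbook accounts, was measured beside it and rose in both resistant lines. It held 1 GTAAACA, the forkhead core, beginning at -223 from the start site and set in capitals (GRCh38.p14, chr2:111120664-111120963, plus strand).
BCL2L11: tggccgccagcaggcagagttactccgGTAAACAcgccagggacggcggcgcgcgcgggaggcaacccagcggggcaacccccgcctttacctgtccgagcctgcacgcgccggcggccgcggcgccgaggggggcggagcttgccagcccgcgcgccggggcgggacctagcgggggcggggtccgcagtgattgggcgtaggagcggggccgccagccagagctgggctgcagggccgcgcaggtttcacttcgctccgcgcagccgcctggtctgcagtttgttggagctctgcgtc
Searched on both strands, this motif occurred in 3.41% of the 27305 promoters and in none of the other 7 members' promoters. No value here bears on whether the match is used.

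BBC3 (ENSG00000105327, chr19:47220822-47232766, minus strand), the PUMA gene, was low in all lines. Its FPKM were 0.701, 0.865 and 0.723 in BxPC-3 and 0.933, 1.04 and 0.946 in BxPC-3-GR. CFPAC-1 had 0.477, 0.449 and 0.548 FPKM and CFPAC-1-GR 0.283, 0.431 and 0.309 FPKM. Resistant libraries lay above the parental ones in the BxPC-3 lines and below them in the CFPAC-1 lines. They rest on an implied 39 to 76 fragments in BxPC-3 and BxPC-3-GR and 16 to 30 in the others. BBC3 was below the minimum for the test. With no minimum its log2FC was 0.16 (adjusted p = 0.052) and -0.15 (adjusted p = 0.073), and its transcript, at 69.7% GC, is the richest in GC of the 10.

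The parents differed before resistance arose. Of the 10 members, 7 passed the minimum in CFPAC-1 against BxPC-3 and all 7 were called, 6 higher and 1 lower, where 84.2% of all 11842 tested genes were, 39.4% higher and 44.8% lower. CFPAC-1 had more BIK (log2FC 2.72, SE 0.101, adjusted p = 8e-07), BCL2L1 (2.50, SE 0.133, adjusted p = 3.6e-06) and BAD (1.32, SE 0.179, adjusted p = 0.00043), and these 3 were SDE, against 44.5% of all tested genes. BAX was higher by 0.70, BAK1 by 0.63 and BID by 0.28 on the log2 scale in CFPAC-1, and MCL1 was lower (log2FC -0.72). The call of BID was lost without replicate 3 of BxPC-3 (adjusted p = 0.062). This comparison also followed GC content (Spearman's rho of 0.628 across genes). After the correction 5 of the 7 were called, 2 higher and 3 lower (76.7% of all genes), and BID was not (adjusted p = 0.073). The excess of BIK and BCL2L1 was then 1.88 and 1.73, that of BAD was 0.09 (adjusted p = 0.65), and BAX and BAK1 turned to -0.25 and -0.34.

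The change from parent to resistant line was compared between the 2 pairs of lines. An interaction term over all 12 libraries, taken as the change in the CFPAC-1 lines minus the change in the BxPC-3 lines, called 6 of 8 members, 1 higher and 5 lower, where 76.6% of all 12210 tested genes were called, 44.9% higher and 31.6% lower. BIK (-2.71, SE 0.138, adjusted p = 2.8e-08) and BAD (-1.88, SE 0.202, adjusted p = 7.2e-06) were SDE, against 38% of all tested genes. BCL2L1 (-0.98, adjusted p = 0.00039), BAX (-0.50, adjusted p = 0.0019) and BID (-0.25, adjusted p = 0.039) were lower and MCL1 (0.79, adjusted p = 5e-06) was higher. The BID call was lost in 8 of the 12 fits that left out 1 library. BAK1 was not called (-0.20, adjusted p = 0.068), and without replicate 2 of CFPAC-1-GR it was (-0.25, adjusted p = 0.021). Median-of-ratios and upper-quartile scaling also called BAK1 lower (-0.55 and -0.66, limma adjusted p = 0.00031 and 6.5e-05). After the GC correction 7 of 8 were called, 3 higher and 4 lower (63.3% of all genes). BIK was then at -2.08, BAD at -0.70, BCL2L1 at -0.40, BID at -0.35 and MCL1 at 0.24, whereas BAX and BAK1 turned to 0.28 and 0.60.

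Summed over the members, the family's RNA was most abundant in CFPAC-1, at 320 ± 34.8 FPKM (SD, n = 3). It was 109 ± 6.72 FPKM in BxPC-3, 120 ± 2.12 FPKM in BxPC-3-GR and 169 ± 9.56 FPKM in CFPAC-1-GR. BCL2L1 and BIK together dominated CFPAC-1, with 37.4% and 32.7% of the sum. BIK fell to a share of 15.1% in CFPAC-1-GR and stood at 13.7% in BxPC-3 and 20.9% in BxPC-3-GR. MCL1 held 27.8% in BxPC-3, 25.9% in BxPC-3-GR, 5.70% in CFPAC-1 and 19.5% in CFPAC-1-GR. BAX took 6.62% in BxPC-3 and 3.01% to 3.88% on average in the other lines. These sums and shares are of deposited values, without the GC correction, and the part of the GC trend in them was not tested. As deposited, MCL1 to BAX averaged 4.20 in BxPC-3 and 1.47 in CFPAC-1, and after the correction 3.20 and 3.19.

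The balance of the anti-apoptotic to the pro-apoptotic group was the log2 ratio of their summed FPKM, a description of the chosen members that was not tested. It averaged -0.18 (SD 0.0571, n = 3 libraries, as in the other lines) in BxPC-3, between -0.23 and -0.12. BxPC-3-GR averaged -0.26 (SD 0.0709), and its libraries overlapped those of BxPC-3. CFPAC-1 averaged -0.40 (SD 0.121), between -0.52 and -0.28, and CFPAC-1-GR 0.60 (SD 0.123), between 0.52 and 0.74. By these sums of all members, CFPAC-1-GR was the line in which anti-apoptotic RNA exceeded pro-apoptotic RNA, at 102 ± 7.65 against 67.0 ± 4.22 FPKM. Its libraries lay above all others. In CFPAC-1 the sums were 138 ± 18.1 and 182 ± 18.6 FPKM, so as deposited both groups were lower in CFPAC-1-GR and the pro-apoptotic one more so. The fall of the anti-apoptotic sum is not given by the corrected changes of its genes. There BCL2L1 was not called (log2FC -0.19, limma adjusted p = 0.22) and MCL1 was higher (0.27, adjusted p = 0.0075). The resistant-minus-parental difference of the balance was 0.997 in the CFPAC-1 lines and -0.08 in the BxPC-3 lines. After the GC correction it was 0.59 and -0.06. Leaving out BIK, a choice made after the values were seen, gave 0.45 and 0.19. Without BIK, anti-apoptotic RNA exceeded pro-apoptotic RNA in every line (mean 0.26 in BxPC-3, 0.44 in BxPC-3-GR, 0.84 in CFPAC-1 and 1.29 in CFPAC-1-GR). With BAX and BAK1 alone as the pro-apoptotic group the difference was 0.30 in the CFPAC-1 lines and 0.56 in the BxPC-3 lines, with no overlap in either. The direction in the BxPC-3 lines thus turned when BIK alone was left out, with the other BH3-only genes still counted. With BAX and BAK1 alone, anti-apoptotic RNA was also the larger in every line, at 0.87, 1.42, 1.60 and 1.91 in the same order. Without BCL2L1 it was the larger in no line.

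**Figure D4:**
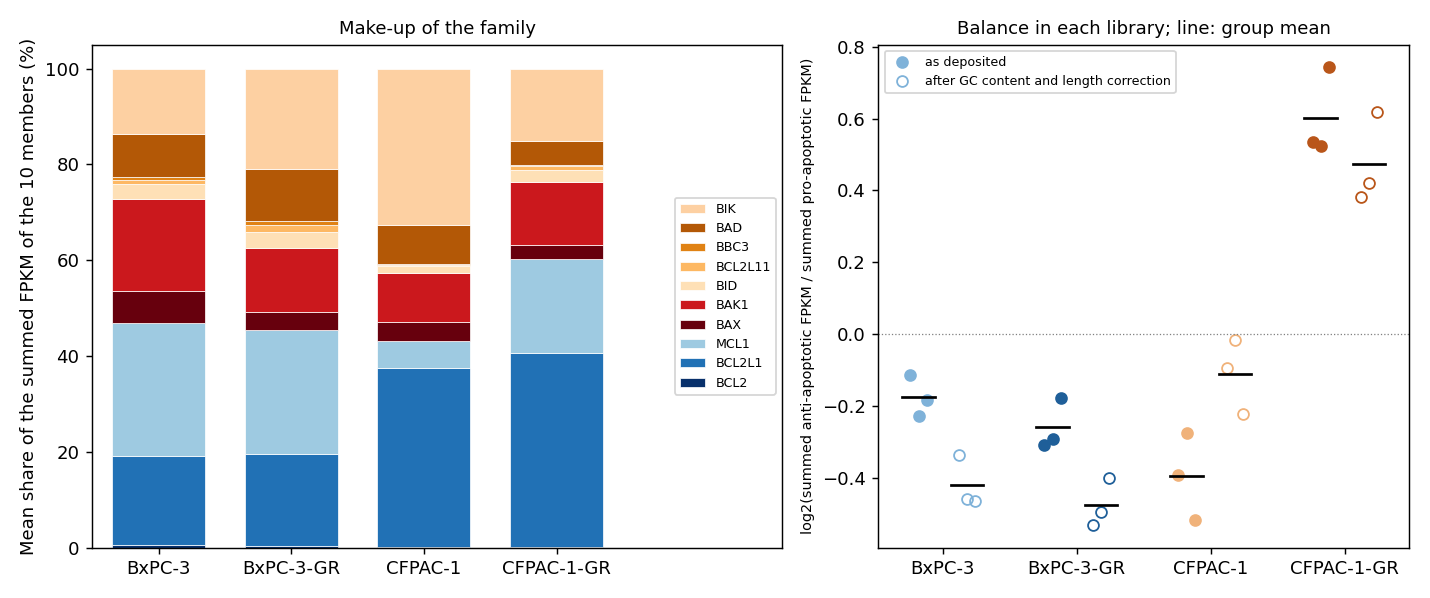
Left, mean share (percent) of each member in the summed FPKM, as deposited, of the 10 members in each line. Right, log2 ratio of summed anti-apoptotic to summed pro-apoptotic FPKM in each library, as deposited (filled) and after correction for GC content and length (open), with group means as lines; the 3 CFPAC-1-GR libraries lie above 0 in both versions and all other libraries lie below it.

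Ratios of single genes, chosen after the values were seen, describe pairs of members. BCL2L1 to BAX was 2.80 ± 0.221 in BxPC-3 and 5.41 ± 0.613 in BxPC-3-GR (SD, n = 3). It was 9.67 ± 0.805 in CFPAC-1 and 13.5 ± 1.59 in CFPAC-1-GR, and the resistant libraries lay above the parental ones in both lines. With the GC correction the CFPAC-1 means were 11.1 and 12.8. MCL1 to BAX was 4.20 ± 0.124 in BxPC-3, 7.30 ± 1.06 in BxPC-3-GR, 1.47 ± 0.0922 in CFPAC-1 and 6.51 ± 0.795 in CFPAC-1-GR. The correction brought the CFPAC-1 means to 3.19 and 5.14. BCL2L1 to BAK1 went from 0.974 ± 0.122 to 1.44 ± 0.0373 in the BxPC-3 lines and from 3.64 ± 0.446 to 3.10 ± 0.260 in the CFPAC-1 lines, where the ranges overlapped. BCL2L1 to BIK went from 1.35 ± 0.0469 to 0.921 ± 0.0326 in the BxPC-3 lines and from 1.15 ± 0.125 to 2.73 ± 0.562 in the CFPAC-1 lines. Its corrected CFPAC-1 means were 1.21 and 2.69.

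Across the 12 libraries, the members most alike in log2(FPKM + 1) were BAX with BAK1 (Pearson's r = 0.908) and BAD with BIK (r = 0.901). MCL1 ran against BIK (r = -0.908) and BAX (r = -0.901). BCL2L1 was closest to BIK (r = 0.844). The 12 points are 4 lines of 3 libraries each and share depth and GC content effects, so these values describe the lines and were not tested.

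Other genes of the family were taken as a list of 13. In BxPC-3-GR, 7 were above the minimum and 3 were called (57.7% of all genes), 2 higher and 1 lower, with a median log2FC of 0.11. BMF, a BH3-only gene, rose most: it had 0.275 to 0.368 FPKM in BxPC-3 and 10.2 to 12.1 FPKM in BxPC-3-GR (log2FC 3.16, SE 0.0747, adjusted p = 2.7e-06). BCL2L12 was SDE and lower there (log2FC -1.16, adjusted p = 0.00028). BNIP3L, a mitophagy receptor of the outer membrane, also rose (log2FC 0.99, adjusted p = 0.031). BOK, PMAIP1 (NOXA), BCL2L13 and BCL2L2 were not called in that line.

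CFPAC-1-GR had 10 of the 13 above the minimum and 8 called (79.6% of all genes), 6 higher and 2 lower, with a median log2FC of 0.93. After the GC correction 5 were called (60.2% of all genes), 4 higher and 1 lower, with a median of 0.10. BNIP3L (1.88, adjusted p = 4.1e-05) and BCL2L15 (1.09, adjusted p = 2.4e-05) were SDE and higher, and BOK (-1.46, adjusted p = 8.6e-06), an effector-like gene, was SDE and lower. BCL2A1 (0.97), BNIP3 (0.96) and PMAIP1 (0.90) rose and BCL2L12 (-0.99) fell without passing the size criterion. The correction left BNIP3L at 0.77 (adjusted p = 0.0042) and BOK at -0.45 (adjusted p = 0.0012), both below the SDE size. With it PMAIP1, BCL2A1, BCL2L12 and BCL2L15 were no longer called (adjusted p = 0.14, 0.61, 0.076 and 0.47). BMF was not called there (log2FC 0.50, adjusted p = 0.13), and with the correction it was (0.81, adjusted p = 0.043). BNIP3 was present in the CFPAC-1 lines at 17.8 to 42.1 FPKM and at 0.0333 to 0.105 FPKM in the BxPC-3 lines. BCL2L2 was SDE and higher (1.61, adjusted p = 0.045), but its libraries overlapped and its exons are shared with the readthrough gene BCL2L2-PABPN1, so it is uncertain.

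Downstream of the mitochondrion, a list of 16 genes ran from cytochrome c to the caspases, their inhibitors and the nucleases. In BxPC-3-GR, 14 were tested and 10 were called (57.7% of all genes), 3 higher and 7 lower, with a median log2FC of -0.19. BIRC3, encoding the ubiquitin ligase cIAP2, was the SDE gene (log2FC 1.81, SE 0.0662, adjusted p = 9.2e-06), from a mean of 2.38 to 10.8 FPKM. For CFPAC-1-GR the counts were 14 tested and 10 called (79.6% of all genes), 7 higher and 3 lower, with a median log2FC of 0.13. The GC correction turned this tally to 7 called (60.2% of all genes), 2 higher and 5 lower, with a median of -0.07. Among the SDE genes, BIRC3 (2.70), APAF1 (1.18) and BIRC2 (1.06) were higher and ENDOG (-1.95) was lower. BIRC3 went from 1.17 to 13.0 FPKM on average there, and after the GC correction its log2FC was 1.33 (adjusted p = 0.0016). The correction left ENDOG at -0.83 (adjusted p = 0.00041), while APAF1 (0.09) and BIRC2 (-0.11) were no longer called (adjusted p = 0.54 and 0.57).

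**Figure D5:**
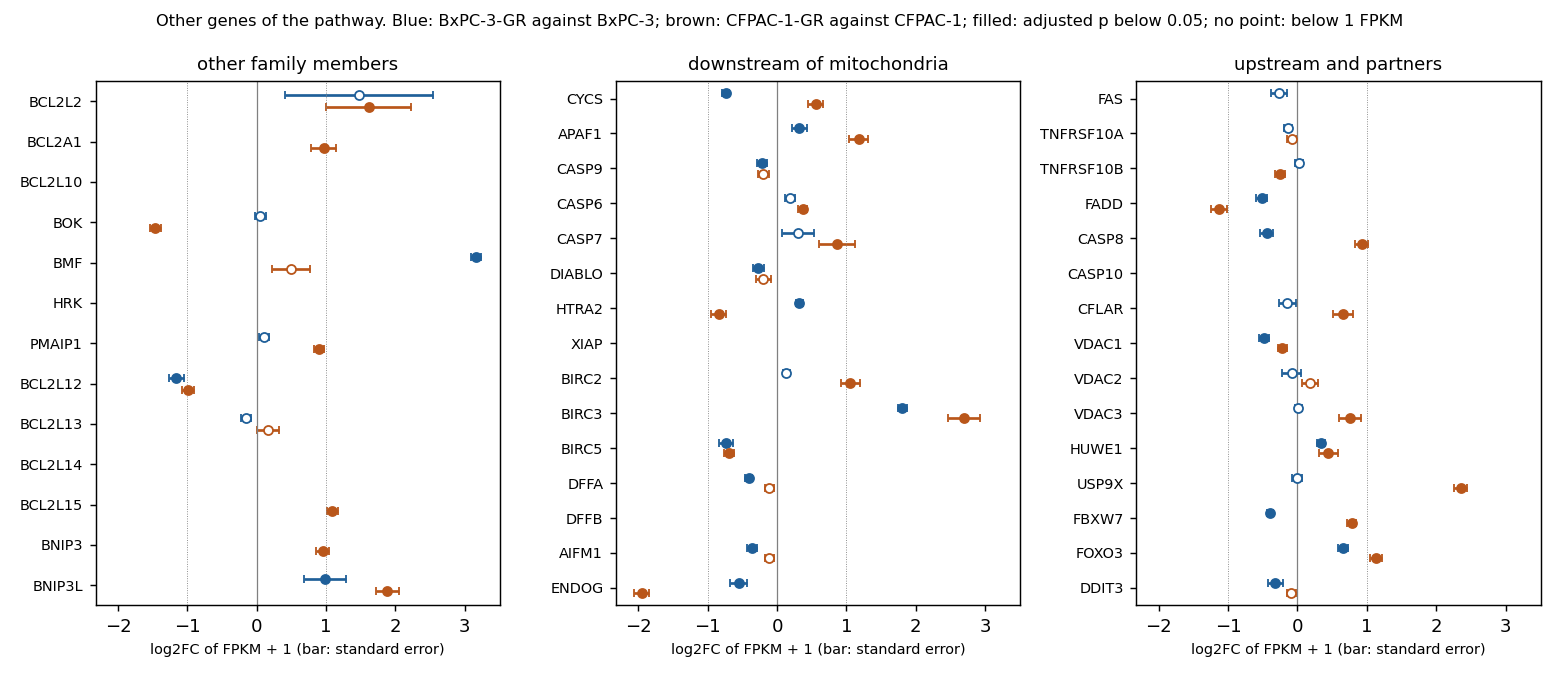
log2FC of FPKM + 1 with standard errors for the other genes of the family (left), genes acting downstream of mitochondria (centre) and upstream regulators and partners (right) in BxPC-3-GR against BxPC-3 (blue) and CFPAC-1-GR against CFPAC-1 (brown). BMF in BxPC-3-GR, at 3.16, is the point farthest to the right, and BIRC3 lies right of 1 in both lines.

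Upstream regulators and partners made a list of 16, with death receptors, their adaptors, the VDAC channels, ubiquitin enzymes of MCL1 and transcription factors. In BxPC-3-GR 15 were tested and 7 called (57.7% of all genes), 2 higher and 5 lower, none of them SDE, with a median log2FC of -0.14. CFPAC-1-GR had 14 tested and 11 called (79.6% of all genes), 7 higher and 4 lower, with a median log2FC of 0.31. With the GC correction 5 were called (60.2% of all genes), 2 higher and 3 lower, with a median of -0.03. The SDE genes there were USP9X (2.36, adjusted p = 6.3e-06) and FOXO3 (1.13, adjusted p = 3e-05), higher, and FADD (-1.14, adjusted p = 9.6e-05), lower. USP9X, whose enzyme removes ubiquitin from MCL1, was at 2.90 FPKM on average in CFPAC-1 and 19.1 FPKM in CFPAC-1-GR, and after the GC correction its log2FC was 1.03 (adjusted p = 6e-05). Its log2FC in BxPC-3-GR was -0.01 (adjusted p = 0.95). FOXO3 also rose in BxPC-3-GR (0.66, adjusted p = 0.00041), and the correction left it at 0.84 in CFPAC-1-GR (adjusted p = 0.00033). FADD, the adaptor of the death receptors, also fell in BxPC-3-GR (-0.52, adjusted p = 0.0015). Its corrected log2FC in CFPAC-1-GR was -0.31 (adjusted p = 0.024), below the SDE size.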

How the data were processed

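The authors sequenced 12 libraries, 3 of each parental and each resistant line, on an Illumina NovaSeq, and deposited FPKM in 1 table of 58302 genes (GRCh38, Ensembl release 91). The submitters' processing notes name Trimmomatic 0.27, FastQC 0.10.1 and TopHat2 2.0.8; the counting program is not given in the sources used here. FPKM are not counts, so no test on counts was run. For low values, 67.5% to 76.4% were within 0.1 of a whole number of implied fragments.

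The members and lists were chosen with earlier results of these data known. All 10 members are named; of the lists, genes that were SDE in either line, and the other family members above the minimum. Some listed genes count in the totals but are not reported here by name. Log2(FPKM + 1) was fitted with limma 3.58.1 in R 4.3.3 (lmFit and eBayes, no block), over the 6 libraries of a comparison or, for the interaction, all 12. GC content of the longest transcript and exon length came from GENCODE release 29. The correction removed from each library's deviation from the gene mean a spline on both with 5 degrees of freedom. Alternatives were a pseudocount of 0.1, no minimum or one of 0.1 FPKM, upper-quartile and median-of-ratios scaling, a prior variance with a mean trend, a single fit of all libraries, a block for the replicate number, and each library left out. On simulated data with 200 changed genes, the BxPC-3 comparison recovered 96% and made 2 false calls in 11685 genes. The CFPAC-1 comparison recovered 97.5% and made 2 in 12030. These rates do not cover the GC trend of the CFPAC-1 lines, and recovery at sizes as small as most members showed was not tested. Figures were drawn with matplotlib 3.10.9 in Python 3.11.15.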

Additional observations from a re-analysis of the deposited data

Results flagged for a closer look

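Members whose change differed between the CFPAC-1 and the BxPC-3 lines were marked, with the value as the change in the CFPAC-1 lines minus that in the BxPC-3 lines on the log2 scale. By the interaction over all 12 libraries in limma these were BIK (-2.71, adjusted p = 2.8e-08), BAD (-1.88, adjusted p = 7.2e-06), BCL2L1 (-0.98, adjusted p = 0.00039), BAX (-0.50, adjusted p = 0.0019), BID (-0.25, adjusted p = 0.039) and MCL1 (0.79, adjusted p = 5e-06). BIK and BAD fell in CFPAC-1-GR and rose in BxPC-3-GR, whereas BAX fell in both. The rise of BAD lost its call with no minimum (limma, adjusted p = 0.07) and in some fits that left out 1 library. The fall of BAD was -0.41 after the GC correction (adjusted p = 0.047). BCL2 and BBC3 lie below 1 FPKM and were marked in the fit with no minimum, at 0.48 (adjusted p = 9.9e-06) and -0.32 (adjusted p = 0.0054). The changes of all tested genes also differed with GC content (Spearman's rho of -0.696 across genes), and BAX turned to 0.28 after the correction. BIK was then at -2.08, BAD at -0.70, BCL2L1 at -0.40, BID at -0.35 and MCL1 at 0.24.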

How the results depend on the processing

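Members called numbered 3 to 4 in the BxPC-3 lines, 6 to 7 in the CFPAC-1 lines and 5 to 6 in the interaction (of 8, or of 7 where BCL2L11 fell below the minimum), and 6 to 7 of 7 between the parents, when each library was left out. Of all tested genes, 6027 to 6428 of 11676 to 11736 were then called in the BxPC-3 lines and 8985 to 9411 of 11840 to 12211 in the CFPAC-1 lines. In the interaction 9056 to 9209 of 12153 to 12246 were called, and between the parents 9623 to 9850 of 11747 to 11929. SDE members of the interaction then numbered 2 to 3, where 4427 to 4748 of all tested genes were SDE. After the GC correction 1042 of 12030 tested genes were SDE in the CFPAC-1 lines and 2243 of 12184 in the interaction. The GC content and length correction, alone or with the replicate block, left 1 SDE member in place of 3 in the CFPAC-1 lines and 1 in place of 2 in the interaction. Under both, BAK1 in the CFPAC-1 lines turned to 0.26, BCL2L11 there to -0.011, and the interactions of BAX and BAK1 to 0.28 and 0.60. The correction alone turned BAX and BAK1 between the parents to -0.25 and -0.34. The BCL2L11 interaction, -0.02, turned to 0.12 with a pseudocount of 0.1 and ran from -0.27 to 0.18 over the libraries left out. MCL1 in the BxPC-3 lines ran from -0.011 to 0.061. The cause of these turns was not tested. BAD in the BxPC-3 lines lost its call with no minimum (adjusted p = 0.07), and BCL2L11 in the CFPAC-1 lines lost its call with no minimum, a minimum of 0.1 FPKM or all libraries in 1 fit (adjusted p = 0.1, 0.056 and 0.084). Scaling moved the median log2FC of all genes in the CFPAC-1 lines from 0.13 to -0.13 (median of ratios) and -0.24 (upper quartile); MCL1 was at 0.53 and 0.41 under them and no member tested under them turned, BCL2L11 being below the minimum there.

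The difference of the anti-apoptotic to pro-apoptotic balance in the BxPC-3 lines, -0.08, was -0.17 as a difference of mean log2 values, 0.56 with effectors alone and 0.19 without BIK. In the CFPAC-1 lines, 0.997 became 0.76, 0.30 and 0.45 in that order, 2.30 without BCL2L1 and 0.59 after the GC correction. Between the parents, -0.22 became -2.41 without BCL2L1, 0.74 with effectors alone, 0.31 after the correction and 0.59 without BIK. Over the libraries left out it ran from -0.12 to -0.05, from 0.93 to 1.06 and from -0.28 to -0.16 respectively.

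Same-numbered libraries deviated together by correlations of -0.04 to 0.09 in the BxPC-3 lines and -0.13 to -0.0015 in the CFPAC-1 lines. In the BxPC-3 lines replicates 1 and 3 deviated most with their own number. With 3 libraries per line this cannot decide whether the numbers pair the samples. With the replicate block 4 members were called in the BxPC-3 lines, 7 in the CFPAC-1 lines, 7 between the parents and 6 in the interaction, as without it. Of all tested genes 6541 of 11710, 9375 of 12051, 9907 of 11842 and 9304 of 12210 were called with the block, in that order. BBC3, BCL2 and BCL2L11 rest on implied fragments from 16, 21 and 44 per library upward, the lowest of the members. BCL2L11 also varied between the libraries of BxPC-3-GR, at 129 to 573 fragments, and the cause of its spread was not tested. With 3 libraries per line small changes such as that of BID lie near the threshold.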

Other observations

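BCL2L2, an anti-apoptotic relative outside the 10 members, split its libraries within lines. It measured 0.540, 0.555 and 9.78 FPKM in BxPC-3, 14.5, 14.9 and 1.24 FPKM in BxPC-3-GR, 0.734, 0.967 and 0.454 FPKM in CFPAC-1 and 0.765, 7.91 and 8.05 in CFPAC-1-GR. The readthrough gene BCL2L2-PABPN1, which shares exons with it, measured 10.6, 11.6 and 2.32 FPKM in BxPC-3, 10.9, 10.0 and 7.72 in BxPC-3-GR, 10.4, 10.9 and 11.4 FPKM in CFPAC-1 and 2.55, 9.54 and 7.51 in CFPAC-1-GR. In BxPC-3 the library high in BCL2L2 was the one low in the readthrough gene, while in CFPAC-1-GR the library low in the readthrough gene was also low in BCL2L2.

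BMF was close to uniform within the BxPC-3 lines but not within CFPAC-1, where replicate 1 had 0.134 FPKM and the others 1.36 and 1.22 FPKM. BCL2A1, an anti-apoptotic gene, had 0.562 to 0.637 FPKM in BxPC-3 and was at 0 in 2 of the 3 BxPC-3-GR libraries, with 0.101 FPKM in the other.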
